A study of Mus musculus with 8 samples.

Results

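The 10 T cell and regulatory T cell genes described here were found by their symbols in a table of counts for 18540 mouse genes from wound skin, and all 10 were present. They are the CD3 chain genes Cd3d, Cd3e and Cd3g, the co-receptor genes Cd4 and Cd8a, the CD28 family genes Cd28, Ctla4 and Icos, the inhibitory receptor gene Tigit, and Foxp3, the transcription factor gene that defines regulatory T cells. Bulk RNA sequencing compared 4 control samples, whose wounds received PBS, with 4 samples whose wounds received Z1C2Z for 15 days. Z1C2Z is the ZCZ nanocomposite, made of zinc peroxide and ceria on a zeolitic imidazolate framework, with the higher share of ceria. The stated dose in the wound experiments was 100 μg/kg. The study made a pair of full-thickness back wounds of 10 mm in C57BL mice aged 6 weeks and in db/db mice aged 10 weeks, which lack a working leptin receptor and become diabetic. The sources used here do not state which of these mice gave the sequenced skin, or which samples shared a mouse, so the p-values below measure the spread between these samples. The samples were labelled skin and carry the numbers 1, 2, 3 and 5 in control and 1, 2, 4 and 5 in Z1C2Z, so that control-3 is the control sample numbered 3. The sample titles read con and shiyan, and shiyan, the Chinese word for experiment, was taken here as Z1C2Z because its sample numbers match those the study gives for that group. Values by sample are given in this order throughout.

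T cells recognise antigen through the T cell receptor, which signals into the cell through the CD3 chains. CD4 and CD8 help the receptor to bind MHC class II and class I, and CD28 gives the second signal that a naive T cell needs. CTLA-4 competes with CD28 for the ligands CD80 and CD86 and restrains activation, and regulatory T cells, which carry much of it, limit inflammation in healing skin and are known to reside near hair follicles in mice.

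None of the 10 genes was called between the groups by edgeR's quasi-likelihood test at a Benjamini-Hochberg adjusted p under 0.05, whereas 8.13% of the 15147 genes tested were called, 4.28% higher in Z1C2Z and 3.85% lower. All 10 genes passed the low-count filter. At an unadjusted p under 0.05 there were 2 of the 10, Cd8a with the higher mean in Z1C2Z and Ctla4 with the lower mean, beside 28% of all genes. DESeq2 called 1 of the 10, Cd8a, beside 7.65% of the genes it tested called higher and 9.31% called lower, and limma-voom called 0. In none of the 10 did the groups separate without overlap, which 17.3% of all genes did. The log2 fold change was over 0 for 7 genes and under 0 for 3, with a median of 0.10, and the median of all genes tested was 0.01. In such bulk skin RNA, fewer cells of a type and less RNA per cell cannot be told apart.

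The libraries held 28856790 to 38974888 counts, and levels are given as CPM, the count scaled by the TMM-normalised library size. The 10 genes had between 8 and 827 counts in a sample. The smallest value was 8 counts for Cd8a in control-1, whose exact Poisson interval at 95% confidence ran from 3.45 to 15.8 counts, covering counting error only. Keratinocyte markers summed to 11600 to 13800 CPM in control and 12600 to 17700 CPM in Z1C2Z, so the labelled tissue carried its defining genes. Markers of other cell types stood at different levels in the groups: the summed CPM of 8 hair shaft keratin and matrix genes was 59.8 to 284 in control and 327 to 2600 in Z1C2Z, with 8 of 8 called higher, and that of 10 skeletal muscle genes was 3970 to 7570 in control and 3520 to 3860 in Z1C2Z. Summed neutrophil markers ran from 605 to 1550 CPM in control and from 174 to 712 in Z1C2Z, and summed macrophage markers from 1400 to 1750 and from 830 to 1480. In either list edgeR called 0 members, and 3 of each had an unadjusted p under 0.05, beside 28% of all genes. The part of these shifts in the values below was not tested.

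**Figure D1:**
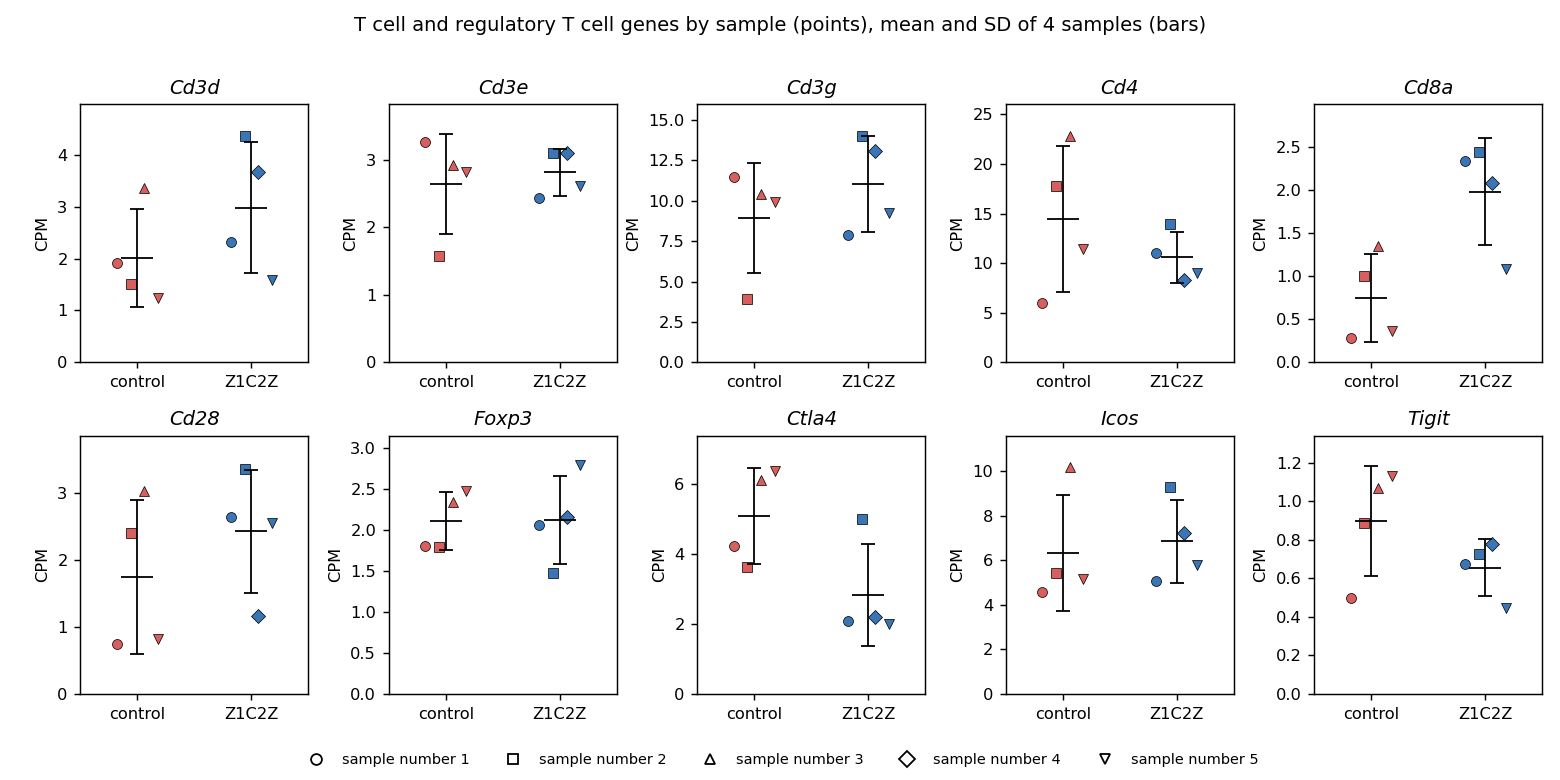
Level of each of the 10 genes in CPM (vertical axes, starting at 0) in the 4 control and the 4 Z1C2Z samples. Points are samples, marked by sample number, and bars give the mean and SD. Z1C2Z-1, Z1C2Z-2 and Z1C2Z-4 lay above every control sample for Cd8a, and Z1C2Z-1, Z1C2Z-4 and Z1C2Z-5 lay below every control sample for Ctla4.

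The CD3 chains assemble with the T cell receptor at the cell surface and carry the motifs through which it signals. Their genes lie together on chromosome 9, where the start sites of Cd3d and Cd3g face away from each other at a distance of 1355 bases and that of Cd3e lies 27825 bases from that of Cd3d. The promoter windows of these 3 genes are shown because their levels could be compared chain by chain in each library, and those of Cd8a and Ctla4 because these genes had an unadjusted p under 0.05. Each window holds 300 bases, 250 before and 50 after the RefSeq start on GRCm38.p6: chr9:44981536-44981835 on the plus strand for Cd3d, chr9:45009562-45009861 on the minus strand for Cd3e, chr9:44980382-44980681 on the minus strand for Cd3g, chr6:71373177-71373476 on the plus strand for Cd8a and chr1:60908775-60909074 on the plus strand for Ctla4. Capitals mark the ETS core ACTTCC, or GGAAGT on the other strand, and the E-box CANNTG.
Cd3d: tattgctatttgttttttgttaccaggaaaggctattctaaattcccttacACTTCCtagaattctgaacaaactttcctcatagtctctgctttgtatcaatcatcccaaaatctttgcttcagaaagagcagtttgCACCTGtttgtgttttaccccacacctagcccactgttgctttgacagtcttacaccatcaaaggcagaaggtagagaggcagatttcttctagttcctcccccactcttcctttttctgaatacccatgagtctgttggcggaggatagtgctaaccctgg
Cd3e: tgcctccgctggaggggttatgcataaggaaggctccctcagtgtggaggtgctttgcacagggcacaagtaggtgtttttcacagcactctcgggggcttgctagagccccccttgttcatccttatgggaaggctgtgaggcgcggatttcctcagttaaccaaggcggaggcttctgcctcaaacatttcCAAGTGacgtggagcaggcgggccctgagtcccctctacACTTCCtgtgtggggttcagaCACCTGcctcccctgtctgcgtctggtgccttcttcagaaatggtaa
Cd3g: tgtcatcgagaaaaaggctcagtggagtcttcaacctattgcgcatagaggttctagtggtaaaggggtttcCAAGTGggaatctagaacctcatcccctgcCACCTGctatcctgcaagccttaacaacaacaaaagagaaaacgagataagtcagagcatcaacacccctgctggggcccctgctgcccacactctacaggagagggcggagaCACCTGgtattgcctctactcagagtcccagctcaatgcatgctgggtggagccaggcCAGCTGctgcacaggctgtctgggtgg
Cd8a: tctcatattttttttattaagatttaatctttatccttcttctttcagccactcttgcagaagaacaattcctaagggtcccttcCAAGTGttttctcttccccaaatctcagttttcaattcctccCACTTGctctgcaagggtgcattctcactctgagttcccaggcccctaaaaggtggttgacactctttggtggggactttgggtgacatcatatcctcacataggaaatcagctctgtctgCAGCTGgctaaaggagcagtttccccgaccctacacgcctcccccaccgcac
Ctla4: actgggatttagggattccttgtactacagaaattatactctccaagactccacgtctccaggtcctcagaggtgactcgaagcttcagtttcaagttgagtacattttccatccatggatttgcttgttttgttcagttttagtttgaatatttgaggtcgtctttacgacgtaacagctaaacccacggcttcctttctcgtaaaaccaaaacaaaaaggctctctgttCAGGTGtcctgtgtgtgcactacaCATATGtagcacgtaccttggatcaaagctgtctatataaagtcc
The ETS core was present once in each of the Cd3d and Cd3e windows and in none of the other 3, and 23.8% of 32851 mouse promoter windows of this length held it. E-box letters occurred once in Cd3d, at 2 places in Cd3e, 4 in Cd3g, 3 in Cd8a and 2 in Ctla4, and 72.3% of all windows held at least 1. Both strands were also searched for GATAA (25.4% of all windows), found once in Cd3g and Cd8a, for TGGAAA (21.4%), found once in Cd3e, Cd3g and Ctla4 and sharing letters with an E-box in Cd3e and Cd3g, for TATAAA (13.6%), found once in Ctla4, and for TGTGGT (16.8%), found in none of the 5. The motifs were chosen after the sequences were seen, and a match describes letters only. RefSeq windows were also at hand for Foxp3 and Tigit, and 7 of the 10 genes matched in all.

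Cd3e (Entrez 12501) was among the steadiest of the 10 genes between the groups. Its level was 3.27, 1.58, 2.92 and 2.82 CPM in the control samples, and 2.43, 3.11, 3.11 and 2.61 CPM in the Z1C2Z samples. All Z1C2Z samples lay inside the control range, whose low end was control-2. Its log2 fold change was 0.09 (SE 0.25, 95% interval -0.46 to 0.64, adjusted p = 0.837).

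Cd3g (Entrez 12502) had the most counts of the chains. It stood at 11.5, 3.94, 10.4 and 9.91 CPM in the control samples and at 7.87, 14.0, 13.1 and 9.26 CPM in the Z1C2Z samples. Control-2 was again the lowest library, Z1C2Z-2 and Z1C2Z-4 were higher than any control, and the groups overlapped. The means were 8.93 ± 3.39 and 11 ± 2.94 CPM (SD, n = 4 per group), with a log2 fold change of 0.31 (SE 0.32, interval -0.41 to 1.03, adjusted p = 0.561 by edgeR).

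Cd3d (Entrez 12500) was at 1.92, 1.5, 3.36 and 1.24 CPM in control and at 2.31, 4.35, 3.67 and 1.58 CPM in Z1C2Z. Z1C2Z-2 and Z1C2Z-4 were once more above every control sample, while control-3 was above Z1C2Z-1 and Z1C2Z-5. Cd3d had a log2 fold change of 0.57 (SE 0.4, interval -0.33 to 1.47, adjusted p = 0.381).

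Summed over the 3 chains, the CD3 level was 16.7, 7.02, 16.6 and 14.0 CPM in control and 12.6, 21.4, 19.9 and 13.4 CPM in Z1C2Z. The difference of 0.35 on the log2 scale lay within the spread between samples (exact two-sided permutation test over 70 arrangements, p = 0.429, where the smallest p possible is 0.0286). Within a library the chains did not keep 1 ratio. Cd3g stood at 3.24 to 4.49 times Cd3e in CPM in 7 of the 8 libraries and at 2.49 times in control-2, whereas Cd3d ranged from 0.44 times Cd3e in control-5 to 1.4 times in Z1C2Z-2. Over the 8 samples the log2 levels of Cd3e and Cd3g gave a Pearson r of 0.978 and a Spearman rho of 0.905, and r was 0.795 without the 2 samples farthest from the median of Cd3e. For Cd3d and Cd3e the Pearson r was 0.483. These points share libraries and sequencing depth, and the correlations are descriptions.

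**Figure D2:**
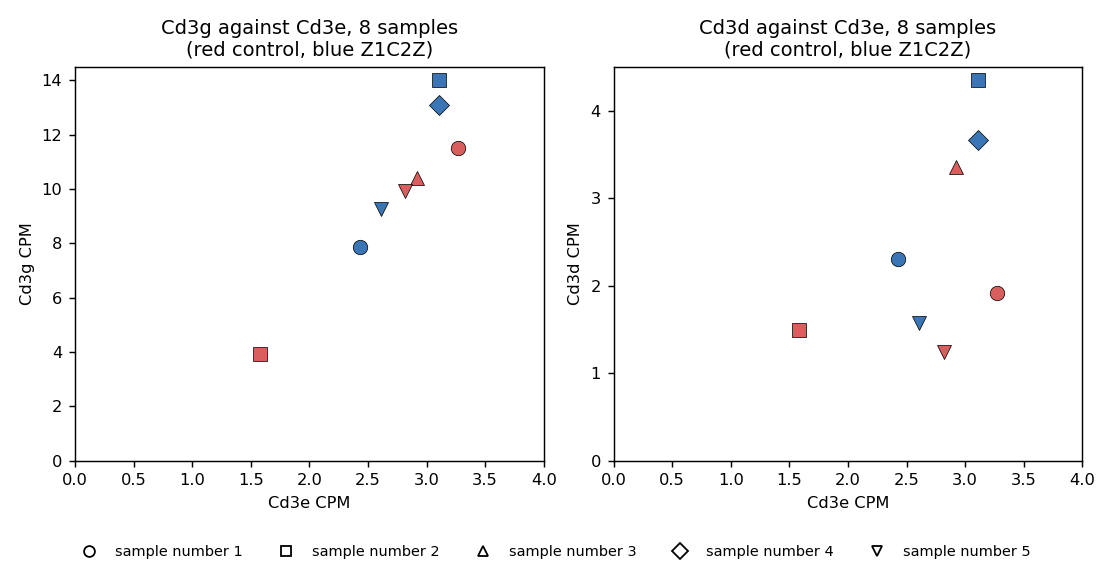
Level of Cd3g (left) and Cd3d (right) against that of Cd3e, all in CPM with axes starting at 0, with 1 point per sample, red for control and blue for Z1C2Z. Cd3g followed Cd3e across the 8 samples (Pearson r of the log2 levels 0.978), while Cd3d spread from 1.24 to 4.35 CPM with a looser relation (0.483).

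The genes whose log2 levels were most like that of Cd3e over the 8 samples were Pex19 (Pearson r 0.974), Spa17 (0.973), Serpina3j (0.969), Itm2b (0.964) and Mpped2 (0.951). None of these is in the T cell lists used here, and with 8 points and 15147 genes a high r is reached easily.

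CD3 was also set against Ptprc, which encodes CD45 and marks leukocytes in general. Ptprc was at 130, 152, 202 and 132 CPM in control and at 128, 102, 80.9 and 147 CPM in Z1C2Z. Per 100 CPM of Ptprc, the summed CD3 level was 12.8, 4.61, 8.25 and 10.6 CPM in control and 9.82, 20.9, 24.6 and 9.16 CPM in Z1C2Z. Z1C2Z-2 and Z1C2Z-4 stood at about 20 or more, and the other 6 libraries at 12.8 or less. The log2 difference was 0.79 (exact permutation p = 0.2).

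Of the wider T cell receptor complex and its proximal signaling genes, 21 of 24 listed genes were in the table used and 20 were tested. edgeR called 0 of them, and DESeq2 and limma-voom called 0. An unadjusted p under 0.05 was found for 1 (Ubash3a, named because it was the single one), beside 28% of all genes. The median log2 fold change was 0.20, with 14 genes over 0 and 6 under. Cd247, the CD3 zeta chain gene, had 4.2 ± 1.01 CPM in control and 4.55 ± 0.46 in Z1C2Z (SD, n = 4 per group, log2 fold change 0.12). The most abundant genes of the list were Fyn, Fyb and Lcp2, a kinase and adapters that other leukocytes also use, with log2 fold changes of -0.18, -0.15 and -0.32. The constant-region genes Trac, Trbc1 and Trbc2 were not analysed here, and Sit1 did not pass the low-count filter.

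Among the co-receptors, CD4 marks helper and regulatory T cells and, in mice, is also carried by some myeloid cells. Cd4 (Entrez 12504) had 168, 640, 827 and 404 counts in control and 390, 541, 331 and 326 counts in Z1C2Z. In CPM these were 5.97, 17.8, 22.8 and 11.4 against 11, 14.0, 8.31 and 9.04. The control samples spread widely, from control-1 to control-3, and enclosed all of the Z1C2Z samples. The means were 14.5 ± 7.34 and 10.6 ± 2.55 CPM (SD, n = 4 per group), and the log2 fold change was -0.45 (SE 0.36, interval -1.27 to 0.36, adjusted p = 0.443 by edgeR). Leaving out 1 sample, the log2 fold change of Cd4 was -0.15 without control-3 (adjusted p = 0.819 by edgeR) and -0.71 without control-1 (adjusted p = 0.103 by edgeR). With a skeletal muscle score as covariate the log2 fold change of Cd4 was -1.11 (adjusted p = 0.0628 by edgeR). This score, the mean log2 CPM of the skeletal muscle genes, was 8.34 to 9.38 in control and 8.25 to 8.35 in Z1C2Z. It largely follows the group, so a fit with this covariate cannot separate muscle content from treatment.

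CD8 alpha marks cytotoxic T cells and, in mice, is also found on some, not all, of the conventional dendritic cells that cross-present antigen. Cd8a (Entrez 12525) had 8, 36, 49 and 13 counts in control and 83, 94, 83 and 39 counts in Z1C2Z. In CPM these were 0.284, 0.999, 1.35 and 0.366 in control against 2.34, 2.44, 2.08 and 1.08 in Z1C2Z. Z1C2Z-1, Z1C2Z-2 and Z1C2Z-4 were above every control sample, and Z1C2Z-5 was below control-3 only. The mean was 0.75 ± 0.512 CPM in control and 1.99 ± 0.621 CPM in Z1C2Z (SD, n = 4 per group), a fitted fold of 2.62. The log2 fold change of 1.39 (SE 0.49, interval 0.27 to 2.5) had an unadjusted p of 0.0199 and an adjusted p of 0.108 by edgeR, and the exact permutation p was 0.0571. With DESeq2 the adjusted p was 0.0346. With the skeletal muscle score, which largely follows the group, as covariate, the log2 fold change was 0.70 (adjusted p = 0.355 by edgeR).

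Cd8b1, which encodes the CD8 beta chain found on CD8 T cells, had 0.107, 0.333, 0.413 and 0.451 CPM in control and 1.3, 1.74, 0.402 and 0.638 CPM in Z1C2Z. Z1C2Z-1 and Z1C2Z-2 were the highest, Z1C2Z-4 lay among the controls, and the log2 fold change was 1.61 (SE 0.55, adjusted p = 0.0959). Xcr1, a receptor gene of cross-presenting dendritic cells, had 1.24, 0.416, 1.1 and 0.789 CPM in control and 1.64, 2.56, 2.74 and 1.72 CPM in Z1C2Z. Clec9a, a receptor gene of the same cells, had 0.959, 0.472, 0.992 and 0.845 CPM against 1.41, 2.18, 1.1 and 1.41 CPM. For both dendritic cell genes the groups did not overlap, although neither was called (log2 fold changes 1.29 and 0.90, adjusted p = 0.0566 and 0.108). They were set beside Cd8a after their values were seen, and they were 2 of 8 dendritic and Langerhans cell markers. Of the 8, edgeR called 0 and 4 had an unadjusted p under 0.05, beside 28% of all genes. Of the other 6, Zbtb46 had a log2 fold change of -0.55 (adjusted p = 0.173), Flt3 -0.11, Ccl22 -0.06, Itgax 0.03, Cd207 0.11 and Epcam 0.64 (adjusted p = 0.0955), and the median of the list was 0.07. The summed level was 137 to 181 CPM in control and 172 to 289 CPM in Z1C2Z, mostly from Epcam, which keratinocytes of the hair follicle also express. The part of dendritic cells in the Cd8a level was not tested.

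Of 10 cytotoxic effector genes tested, edgeR and limma-voom called 0. DESeq2 called 1 higher and 1 lower, beside 7.65% and 9.31% of the genes it tested. At an unadjusted p under 0.05 there were 2, Cd8b1 and Gzmb, beside 28% of all genes, and the median of the list was -0.02. Gzmb, a granzyme of killer cells, had 3.53 ± 1.49 CPM in control and 1.76 ± 0.655 CPM in Z1C2Z (SD, n = 4 per group, log2 fold change -1.01, adjusted p = 0.11 by edgeR). The most abundant genes of the list, Klrk1, Gzmc and Klrd1, had log2 fold changes of 0.01, 0.61 and -0.13. The summed level of the list was highest in control-3, at 54.5 CPM against 17.8 to 32.6 in the other control samples and 22.9 to 43.4 in Z1C2Z.

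The ratio of Cd4 to Cd8a, taken within each library so that library size cancels, separated the groups. It was 21.0, 17.8, 16.9 and 31.1 in control and 4.7, 5.76, 3.99 and 8.36 in Z1C2Z. Every Z1C2Z sample was below every control sample. The mean ratio was 21.7 ± 6.51 in control and 5.7 ± 1.92 in Z1C2Z (SD, n = 4 per group). On the scale of log2(CPM + 0.5) the difference was -1.35, or 2.55-fold lower, with an exact permutation p of 0.0286, the smallest this design can give, and 0.286 after adjustment over the 20 levels and ratios so tested. With a pseudocount of 2 CPM the difference was -0.82 (exact permutation p = 0.0857) and with 0.1 CPM -1.76 (exact permutation p = 0.0286). Cd4 and Cd8a were the most and the least abundant of the 10 genes in control per length, so the ratio rests on small Cd8a counts. The higher mean of Cd8a and the lower mean of Cd4 both enter it.

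**Figure D3:**
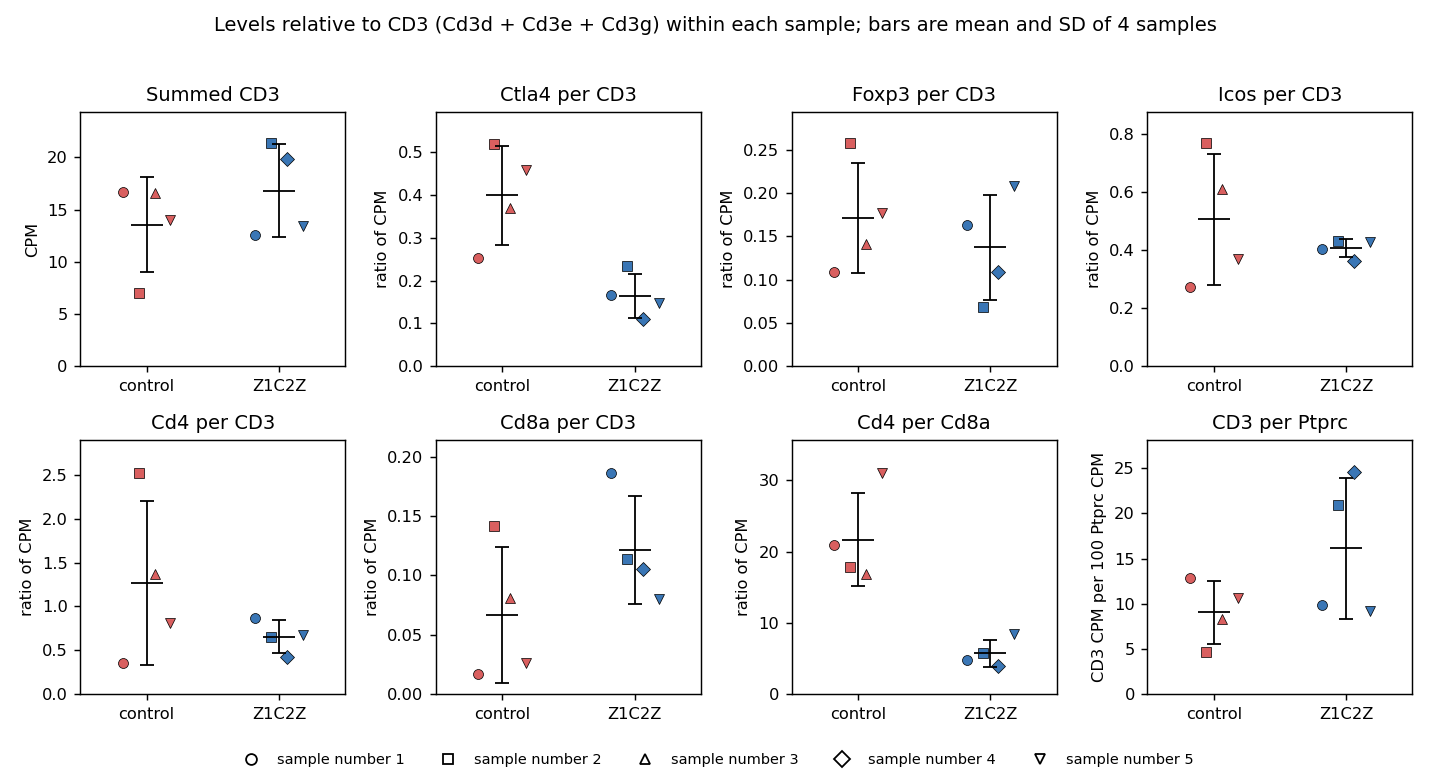
Summed CD3 level in CPM, levels of Ctla4, Foxp3, Icos, Cd4 and Cd8a per CPM of summed CD3, the Cd4 to Cd8a ratio, and CD3 per 100 CPM of Ptprc, by sample, with the mean and SD of 4 samples and all axes starting at 0. The groups did not overlap for Ctla4 per CD3 (0.253 to 0.518 against 0.111 to 0.233) and for Cd4 to Cd8a (16.9 to 31.1 against 3.99 to 8.36), and overlapped in the other panels.

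Cd28 (Entrez 12487), the costimulatory receptor gene, was at 0.746, 2.41, 3.03 and 0.817 CPM in control and 2.65, 3.37, 1.16 and 2.55 CPM in Z1C2Z. Control-1 and control-5 were low, as they were for Cd8a, and Z1C2Z-4 was the low library of its group. With quality weights, limma-voom gave control-1 and control-5 the lowest weights of all libraries (0.484 and 0.682, the others 0.88 to 1.82). Both also had the highest skeletal muscle scores, 9.38 and 8.77, and the part of this in their low values was not tested. Cd28 had a log2 fold change of 0.46 (SE 0.5, interval -0.67 to 1.6, adjusted p = 0.578), and it was -0.24 with the skeletal muscle score as covariate, 0.21 without control-1 and 0.86 without control-3. Per CD3 the exact permutation p was 0.83.

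Ctla4 (Entrez 12477) encodes the inhibitory counterpart of CD28. It had 119, 131, 222 and 227 counts in control and 74, 193, 88 and 72 counts in Z1C2Z, which were 4.23, 3.64, 6.11 and 6.39 CPM against 2.09, 5.0, 2.21 and 2.0 CPM. Z1C2Z-1, Z1C2Z-4 and Z1C2Z-5 lay within a narrow span below every control sample, and Z1C2Z-2 lay among the controls. The means were 5.09 ± 1.37 and 2.82 ± 1.45 CPM (SD, n = 4 per group), a fitted level 1.8-fold lower in Z1C2Z. The log2 fold change of -0.85 (SE 0.34, interval -1.62 to -0.08) had an unadjusted p of 0.034 and an adjusted p of 0.143 by edgeR, and the exact permutation p was 0.0857. Leaving out 1 sample gave log2 fold changes of -1.28, without Z1C2Z-2, to -0.72, and over all alternatives the adjusted p was 0.0624 to 0.472.

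Relative to the summed CD3 level, Ctla4 was 0.253, 0.518, 0.368 and 0.458 in control and 0.166, 0.233, 0.111 and 0.148 in Z1C2Z. All Z1C2Z samples were below all control samples, Z1C2Z-2 included, since its CD3 level was the highest of the 8. The mean was 0.399 ± 0.115 in control and 0.165 ± 0.0511 in Z1C2Z (SD, n = 4 per group). The log2 difference, with 0.5 CPM added to Ctla4, was -1.15, or 2.23-fold lower, with an exact permutation p of 0.0286, the smallest possible, and 0.2 adjusted over the 7 ratios to CD3 (0.286 over all 20 levels and ratios). The other 6 ratios to CD3 had exact permutation p-values of 0.171 to 0.83.

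Icos (Entrez 54167), an inducible costimulator gene of activated, follicular helper and regulatory T cells, was at 4.58, 5.41, 10.2 and 5.15 CPM in control and at 5.08, 9.28, 7.23 and 5.77 CPM in Z1C2Z. Control-3 and Z1C2Z-2 were the high libraries and the groups overlapped throughout (log2 fold change 0.11, SE 0.29, interval -0.54 to 0.76, adjusted p = 0.83). Per CD3 it was 0.274, 0.771, 0.611 and 0.369 in control and 0.403, 0.433, 0.364 and 0.429 in Z1C2Z, where the Z1C2Z samples were close together inside the control range (exact permutation p = 0.571). Of the other pairs among the 10 genes, Cd3d and Icos gave a Pearson r of 0.802 and a Spearman rho of 0.571 over the 8 samples. For Cd8a and Cd28 the Pearson r was 0.745 and the Spearman rho 0.81. Without the 2 samples farthest from the median of Cd8a the Pearson r was -0.102, so it depends on those samples.

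Tigit (Entrez 100043314), an inhibitory receptor gene of T and NK cells, was the member with the lowest mean count after Cd8a in control. It had 14, 32, 39 and 40 counts in control and 24, 28, 31 and 16 in Z1C2Z, or 0.497, 0.888, 1.07 and 1.13 CPM against 0.677, 0.725, 0.778 and 0.444 CPM. Control-2, control-3 and control-5 were above every Z1C2Z sample and control-1 was not. Its fitted log2 fold change was -0.45 (SE 0.33, interval -1.19 to 0.28, adjusted p = 0.395).

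Foxp3 (Entrez 20371) was at 1.81, 1.8, 2.34 and 2.48 CPM in control and at 2.06, 1.48, 2.16 and 2.8 CPM in Z1C2Z. The means were 2.11 ± 0.352 and 2.12 ± 0.542 CPM (SD, n = 4 per group). The log2 fold change was 0.01 (SE 0.24, adjusted p = 0.986 by edgeR), and its interval of -0.54 to 0.56 leaves room for a change of that size in either direction. Per CD3 it was 0.109, 0.257, 0.141 and 0.177 in control and 0.163, 0.0689, 0.109 and 0.208 in Z1C2Z, with overlapping groups (exact permutation p = 0.4, 0.56 adjusted over the 7 ratios). Thus Foxp3 had near equal means while Ctla4, which regulatory T cells also express, had the lower mean in Z1C2Z, and the difference between these changes was not tested.

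Foxp3 shares exon bases on the opposite strand with Ccdc22 (590 bases, 12.9% of the Foxp3 exon length in GENCODE M21) and Ppp1r3f (266 bases, 5.81%), and the strand setting of the counting is not given in the sources used here. Ccdc22 was at 14.1 to 17.2 CPM in control and 15.5 to 20.2 CPM in Z1C2Z (log2 fold change 0.24, adjusted p = 0.215), several times the Foxp3 level, and its log2 level had a Pearson r of -0.0987 with that of Foxp3 over the 8 samples. With the lncRNA genes Gm36995, on the opposite strand, and Flicr, on the same strand, the shared exon bases, added up gene by gene, come to 2082 beside a Foxp3 exon length of 4577, so its counts are uncertain to an unknown extent. Cd3e overlaps the antisense gene Gm48719 over 135 bases. The other 8 genes overlap no other gene in their exons. The genes most like Foxp3 over the 8 samples were Tmem169 (Pearson r 0.923), Calml4 (0.92), Kcnab2 (0.899), Alg12 (0.894) and Rgs9 (0.888).

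Between genes, levels were compared as CPM per kilobase of exon in GENCODE M21. In control the order of means was Cd4 (3.59 ± 1.82), Cd3g (2.73 ± 1.04), Ctla4 (2.19 ± 0.587), Icos (1.84 ± 0.752), Cd3d (1.1 ± 0.521), Tigit (0.976 ± 0.31), Cd3e (0.649 ± 0.18), Foxp3 (0.461 ± 0.0769), Cd28 (0.286 ± 0.188) and Cd8a (0.206 ± 0.141 CPM per kilobase, SD, n = 4). The ranges of neighbours in this order overlapped in 9 of 9 pairs. In Z1C2Z the order was Cd3g (3.38 ± 0.9), Cd4 (2.63 ± 0.632), Icos (1.99 ± 0.541), Cd3d (1.64 ± 0.694), Ctla4 (1.21 ± 0.624), Tigit (0.714 ± 0.161), Cd3e (0.69 ± 0.0862), Cd8a (0.546 ± 0.171), Foxp3 (0.464 ± 0.118) and Cd28 (0.397 ± 0.151). There 8 of 9 neighbouring pairs overlapped, and the exception was the narrow gap between Ctla4, with a lowest value of 0.857, and Tigit, with a highest value of 0.847. Ctla4 thus stood at rank 3 in control and at rank 5 in Z1C2Z, and Cd8a at rank 10 and rank 8.

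**Figure D4:**
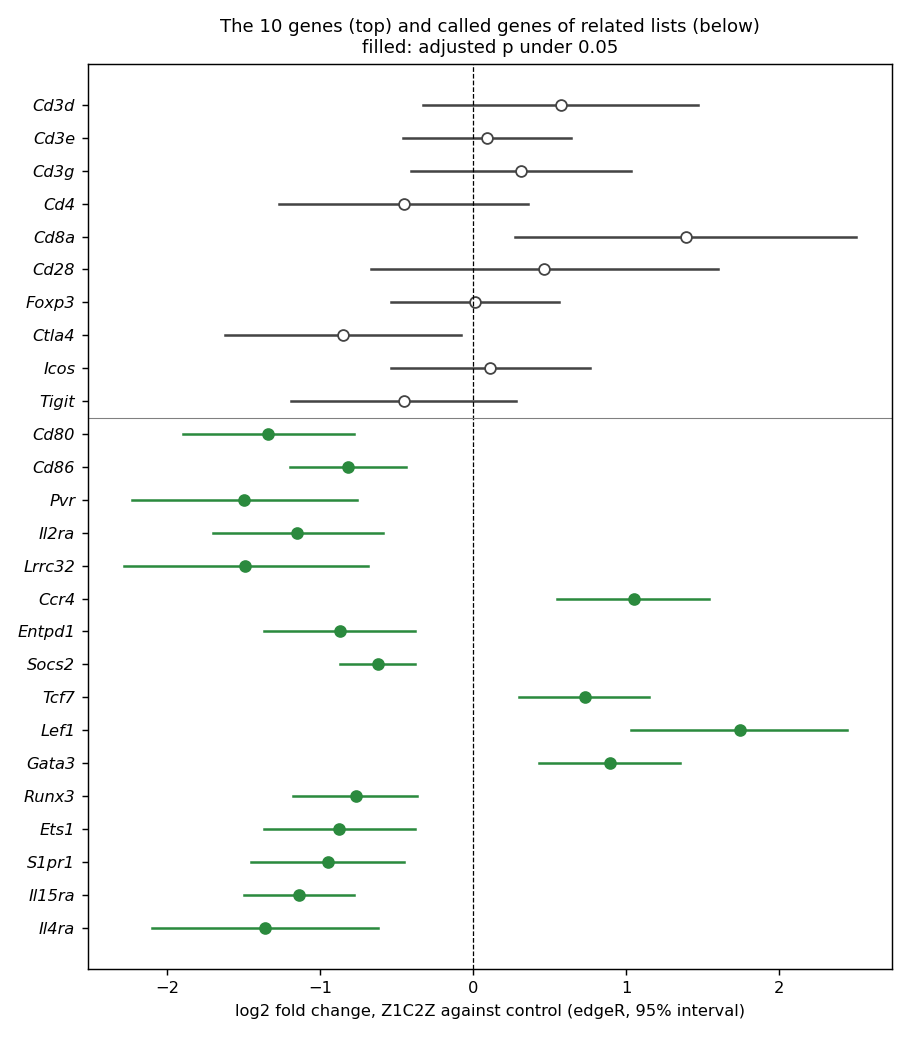
Log2 fold change of Z1C2Z against control by edgeR with its 95% interval (horizontal axis, 0 dashed) for the 10 genes (top) and the 16 called genes of the related lists (below), with filled points for an adjusted p under 0.05. The interval of Cd8a (0.27 to 2.5) and that of Ctla4 (-1.62 to -0.08) leave out 0 without passing the adjusted threshold, and the other 8 members' intervals hold 0.

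The ligands of these receptors are carried mostly by antigen-presenting and tissue cells. Of 12 ligand genes tested, 3 were called lower in Z1C2Z and 0 higher, beside 3.85% and 4.28% of all genes tested. The median log2 fold change was -0.59 and 10 genes were under 0, beside 48.9% of all genes. Cd80, a shared ligand of CD28 and CTLA-4, was at 21.4, 13.8, 13.7 and 18.1 CPM in control and 8.8, 4.82, 4.77 and 8.04 CPM in Z1C2Z. The highest Z1C2Z sample was well below the lowest control, and the log2 fold change was -1.34 (SE 0.25, adjusted p = 0.03 by edgeR). Cd86, the other shared ligand, fell from 31.4 ± 7.9 to 17.7 ± 1.19 CPM (SD, n = 4 per group, log2 fold change -0.82, SE 0.17, adjusted p = 0.0311 by edgeR), also without overlap. Pvr, the main ligand of TIGIT, fell from 45.4 ± 22.7 to 16.1 ± 3.13 CPM (log2 fold change -1.50, SE 0.32, adjusted p = 0.0337 by edgeR). The ligand gene of ICOS, Icosl, had 15 ± 1.67 CPM in control and 15.9 ± 1.31 CPM in Z1C2Z (log2 fold change 0.09, interval -0.17 to 0.35). The PD-1 ligand gene Cd274 had a log2 fold change of -0.79 (adjusted p = 0.173), and Nectin3 and Nectin2 had -0.04 and 0.07. Cd70 did not pass the low-count filter.

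**Figure D5:**
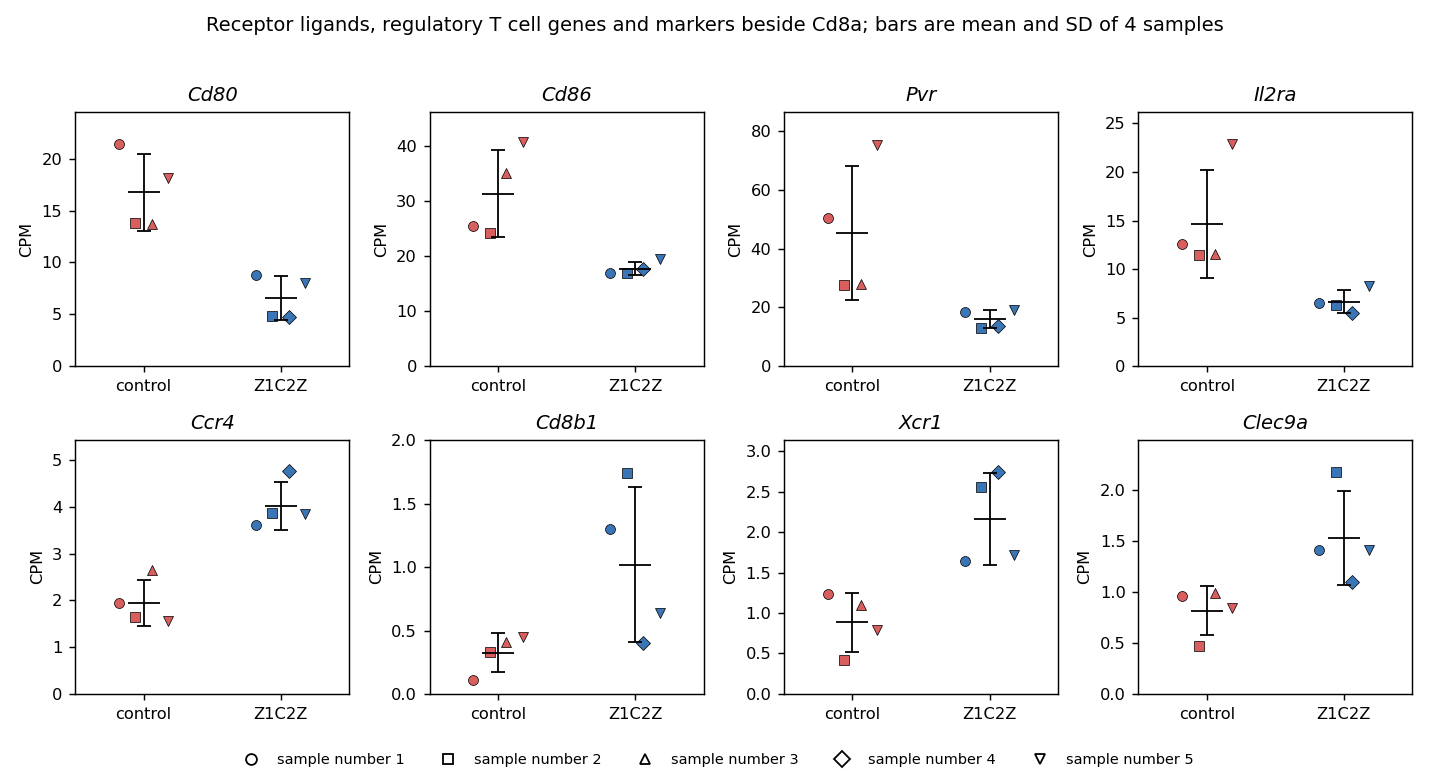
Level in CPM (axes starting at 0) of the called ligand genes Cd80, Cd86 and Pvr, the regulatory T cell genes Il2ra and Ccr4, and the markers Cd8b1, Xcr1 and Clec9a that were set beside Cd8a, by sample, with mean and SD of 4 samples. The groups overlapped for Cd8b1 alone among these 8 genes. Cd80, Cd86, Pvr, Il2ra and Ccr4 were shown because they were called, and Xcr1 and Clec9a after their values were seen. Of all genes tested, 17.3% had groups without overlap.

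Of 18 other genes linked to regulatory T cells that were tested, 4 fell and 1 rose, beside 3.85% and 4.28% of all genes. Their median log2 fold change was -0.45 and 15 genes were under 0, beside 48.9% of all genes. Ccr4, a skin-homing chemokine receptor gene of regulatory and helper T cells, was at 1.95, 1.64, 2.64 and 1.55 CPM in control and 3.61, 3.86, 4.77 and 3.85 CPM in Z1C2Z. It was higher in every Z1C2Z sample than in any control sample (log2 fold change 1.05, SE 0.22, adjusted p = 0.0319 by edgeR). Il2ra, the high-affinity IL-2 receptor chain gene that regulatory T cells express along with activated T cells and some myeloid cells, was at 12.6, 11.5, 11.6 and 22.9 CPM in control and 6.49, 6.3, 5.45 and 8.29 CPM in Z1C2Z. All Z1C2Z samples were below the lowest control (log2 fold change -1.15, SE 0.25, adjusted p = 0.0337 by edgeR).

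The other 3 that fell are widely expressed outside T cells. Lrrc32, which encodes GARP, a surface docking protein for latent TGF-beta found on regulatory T cells, platelets and endothelium, went from 60.8 ± 32.8 to 21.7 ± 6.53 CPM (adjusted p = 0.0396 by edgeR, n = 4 per group). Entpd1, the ATP-degrading enzyme CD39 of regulatory T cells, macrophages and endothelium, went from 148 ± 25.8 to 80.9 ± 25.4 CPM (adjusted p = 0.0452 by edgeR, n = 4). Socs2, a feedback inhibitor gene of cytokine signaling, went from 28.4 ± 2.6 to 18.4 ± 1.94 CPM (adjusted p = 0.0299 by edgeR, n = 4). Of the most abundant other genes of the list, Nrp1, Nt5e and Tnfrsf1b had log2 fold changes of -0.38, -0.34 and -0.52 (adjusted p = 0.301, 0.263 and 0.182). Ikzf2, which encodes Helios, had a log2 fold change of -0.02 (interval -0.46 to 0.42), and Il10 one of -1.24 (SE 0.41, adjusted p = 0.0895). Summed macrophage and neutrophil markers were below every control sample in 3 of the 4 Z1C2Z samples, and their part in these falls was not tested.

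Of 13 other costimulatory and coinhibitory receptor genes, edgeR, DESeq2 and limma-voom called 0. An unadjusted p under 0.05 was found for 3 of them, beside 28% of all genes. The median was -0.03. The most abundant were Vsir, Tnfrsf9 and Havcr2, with log2 fold changes of -0.12, -2.25 (SE 0.77, adjusted p = 0.0967) and -0.58. Tnfrsf9, the 4-1BB receptor gene, ranged from 6.36 to 72.3 CPM among the control samples.

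Of 15 T cell lineage transcription factor genes tested, 3 rose and 2 fell, beside 4.28% and 3.85% of all genes, and the median was 0.10. The genes that rose, Lef1, Gata3 and Tcf7, act in T cell development and are also expressed in the hair follicle. Lef1 went from 11.3 ± 4.18 to 37.6 ± 11.1 CPM (log2 fold change 1.74, SE 0.31, adjusted p = 0.0299 by edgeR, n = 4 per group), Gata3 from 51.5 ± 14.9 to 95.2 ± 17.3 CPM (0.89, adjusted p = 0.0374 by edgeR) and Tcf7 from 15.7 ± 2.14 to 26.0 ± 6.62 CPM (0.73, adjusted p = 0.0487 by edgeR). They moved in the same direction as the 8 hair shaft genes given above, whose part here was not tested. Runx3, a factor of the CD8 lineage, fell from 13.4 ± 2.51 to 7.85 ± 1.48 CPM (-0.77, adjusted p = 0.039 by edgeR, n = 4), and Ets1 from 108 ± 34 to 59.1 ± 11.1 CPM (-0.88, adjusted p = 0.0449 by edgeR, n = 4) with overlapping samples.

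Of 10 cytokine and receptor genes of T cell growth, 2 fell and 0 rose by edgeR, beside 3.85% and 4.28% of all genes. An unadjusted p under 0.05 was reached by 5 of them, beside 28% of all genes, and the median was -0.51. Il15ra, which presents IL-15 to lymphocytes, was at 41.3, 49.4, 48.9 and 51.3 CPM in control and at 26.8, 16.8, 18.3 and 24.5 CPM in Z1C2Z (log2 fold change -1.14, SE 0.16, adjusted p = 0.028 by edgeR), with no overlap. Il4ra fell from 226 ± 62.8 to 87.9 ± 39 CPM (log2 fold change -1.36, SE 0.33, adjusted p = 0.0414 by edgeR, n = 4 per group). Of the most abundant others, Il2rg, Il7r and Il2rb had log2 fold changes of -0.68, -0.34 and -0.19 (adjusted p = 0.115, 0.102 and 0.752).

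Of 16 homing receptor and chemokine genes tested, 1 was called, beside 8.13% of all genes tested, so the count is near that share. S1pr1, an egress receptor gene of lymphocytes that endothelium also expresses, fell from 93.5 ± 28.2 to 48.4 ± 9.26 CPM (log2 fold change -0.95, SE 0.22, adjusted p = 0.0391 by edgeR, n = 4 per group). The most abundant others, Ccl21a, Cxcl16 and Cxcl9, had log2 fold changes of 0.30, -0.29 and -1.0 (adjusted p = 0.443, 0.233 and 0.471). Of 5 gamma-delta T cell genes tested, 0 were called by edgeR, DESeq2 or limma-voom. An unadjusted p under 0.05 was found for 1, beside 28% of all genes, and the median was 0.14. The receptor genes of these cells were not analysed here. NK and innate lymphoid markers summed to 46.2 to 66.2 CPM in control and 29.5 to 54.6 in Z1C2Z, with 0 of 6 called and 0 at an unadjusted p under 0.05.

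Where edgeR called 4.28% of all genes tested higher and 3.85% lower, it called 4 genes higher and 12 lower in the related lists together. In the order described above, from receptor signaling to gamma-delta T cell genes, these lists held 20, 10, 12, 18, 13, 15, 10, 16 and 5 genes tested. The markers of other cell types are not among them. The 16 called genes had the same sign of the log2 fold change in 16 of 16 alternatives, with leave-one-out ranges of -1.26 to -1.04 for Il15ra, -1.5 to -1.21 for Cd80, 1.54 to 1.98 for Lef1 and -1.69 to -1.04 for Lrrc32. Their adjusted p depended on single libraries: none was called without Z1C2Z-1, without Z1C2Z-2, without Z1C2Z-4 or without control-5, and without control-2 there were 0 higher and 3 lower, without control-3 2 and 8, without control-1 3 and 12, and without Z1C2Z-5 4 and 14. With the skeletal muscle score as covariate, 0 were called higher and 1 lower, Il15ra, beside 15 and 66 of all genes tested. In that fit the log2 fold change was -1.03 for Cd80 and 1.53 for Lef1. Since the score largely follows the group, the calls lost in this fit cannot be read as an effect of muscle content.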

How the data were processed

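The authors deposited raw read counts per gene for 8 skin samples, without normalization. Per the labels, RNA was extracted with Trizol (the methods name another kit), ribosomal RNA was removed, and dUTP was used for the second cDNA strand after random priming. Aligner, counter, genome build, annotation and strand setting are not given in the sources used here. Groups follow the titles con and shiyan, the latter read as Z1C2Z by its sample numbers. The table held 0 unused per-sample columns.

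In R 4.3.3, edgeR 4.0.16 (filterByExpr, TMM, quasi-likelihood test, Benjamini-Hochberg adjustment over 15147 genes, no covariate) tested Z1C2Z against control. Levels and ratios were tested by exact two-sided permutation of log2 values with a pseudocount of 0.5 CPM. Alternatives used DESeq2 1.42.0, limma 3.58.1, other filters, a covariate or fewer samples. Members and lists were chosen with earlier results of these data known. The text names all 10 members, the called genes of each list with up to 3 abundant others, 5 genes most like Cd3e and Foxp3, and genes set beside a member. On simulated counts of 15055 genes with 200 true changes of 2 on the log2 scale, 184 of these were recovered and 12 others called. The largest fitted change among the 10 members was 1.39, for Cd8a, so this recovery does not measure the power for them. No pair of libraries agreed within sampling noise (chi-square per degree of freedom at least 19.1).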

Additional observations from a re-analysis of the deposited data

Results flagged for a closer look

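In 2 of 40 groups of 4 samples tested, 1 sample stood apart from the others by Dixon's criterion, about the share of 1 in 20 that chance gives. Ctla4 in Z1C2Z-2 was 5.0 CPM against 2.21 CPM in the next library of its group, a gap of 0.929 of the group's range. Icos in control-3 was 10.2 CPM against 5.41 CPM in the next library, a gap of 0.852 of the range.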

How the results depend on the processing

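Of 1195 alternative values for 80 results, 963 were labelled the same and 134 weaker, meaning no longer under 0.05. Another 97 had moved, meaning a count or median outside its set margin, and 1 was stronger. None reversed a call, which also took a change of sign. For the 10 genes, 0 were called higher and 0 lower in each of the 8 fits that left out 1 sample and in the other alternatives, except that DESeq2 called 1 higher, Cd8a. Cd8a had fewer than 10 counts in control-1 and so no value under the filter of at least 10 counts in every sample. Foxp3 had log2 fold changes of -0.15 to 0.15. Of the related lists, DESeq2 called 6 higher and 19 lower, beside 1243 and 1513 of all genes. The fit with the sample number as a block called 1 higher and 7 lower, beside 301 and 253 of all genes. The fit with the skeletal muscle score as covariate called 0 higher and 1 lower, beside 15 and 66 of all genes. In the related lists, leaving out 1 sample gave 0 to 4 higher and 0 to 14 lower. For all genes tested, called higher were then 0 to 886 and called lower 0 to 868, beside 648 and 583 in the main test. For Ctla4 per CD3, leaving out 1 sample gave -1.35 to -0.99, and for Cd4 to Cd8a -1.51 to -1.22, all with p = 0.0571, the smallest that 3 against 4 samples allow by exact permutation. With a pseudocount of 2 CPM, Cd4 to Cd8a was -0.82 (exact permutation p = 0.0857), and with 0.1 CPM -1.76. With the skeletal muscle score as covariate, Cd4 was -1.11 and Cd28 -0.24, in a fit that cannot separate muscle content from treatment. The cause of these shifts was not tested.

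The samples share the numbers 1, 2 and 5 across the groups. Same-numbered samples deviated from their group means with correlations of -0.101, -0.0623 and 0.323. So few values cannot settle whether the number is a pairing, and the main test did not use it. Over these 3 pairs Ctla4 per CD3 was -1.02 and Cd4 to Cd8a -1.17 (exact p = 0.25 each, the smallest possible for this block), and with the replicate block the log2 fold changes were 0.05 for Cd4 and 1.28 for Cd28.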
